A study of Homo sapiens with 6 samples.

Results

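The 63 genes described here are the collagen chains and the collagen modifying enzymes listed in the expression table, chosen by gene symbol out of 26255 genes. They comprise 44 collagen alpha chains and 19 enzymes or enhancers, namely the prolyl 4-hydroxylase subunits, the prolyl 3-hydroxylases with the cofactor CRTAP, the lysyl hydroxylases, the lysyl oxidases and the procollagen C-proteinase enhancers. Their mRNAs were measured by RNA sequencing in NCI-H1299, a human lung cancer cell line established from a lymph node metastasis of a non-small cell carcinoma. In the design, 3 libraries came from cells carrying a pSilencer2.1-U6 control shRNA (shControl) and 3 from cells carrying a pSilencer2.1-U6 Ephexin1 shRNA (shEphexin1). The question was which mRNAs change with Ephexin1, a guanine nucleotide exchange factor for small GTPases encoded by NGEF. Both groups were drug-selected stable transfectants without further treatment, and the names of the 3 shEphexin1 libraries share 1 stem, so that they may be repeats of 1 clone.

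Collagens are triple helices of alpha chains that are assembled in the endoplasmic reticulum, secreted and built into fibrils, networks or beaded filaments outside the cell. Prolyl 4-hydroxylase modifies prolines so that the helix is stable at body temperature, prolyl 3-hydroxylase works in a complex with CRTAP, and lysyl hydroxylases modify lysines that later carry sugars or crosslinks. After secretion, propeptides are cleaved off and lysyl oxidases start the crosslinks between molecules. In carcinomas most of the fibrillar collagen comes from fibroblasts, while epithelial cancer cells make some network, transmembrane and fibril-associated chains and much of the enzyme repertoire.

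Promoter sequences are shown for 4 chains on which the results turn, so the DNA at their start sites can be read beside the values. Of these, 3 were higher and 1 was lower in shEphexin1 cells. COL6A1, which was also higher, had no promoter in the RefSeq table and is not shown. Each sequence runs 5′ to 3′ on the strand of the gene, from 250 bases before to 50 bases after the start site, as given by RefSeq on GRCh38.p14. Capitals mark matches to the letters of the TATA box (TATAAA) and the GC box (GGGCGG), wherever they fall in the sequence. Each was searched on both strands, so that a GC box on the other strand reads CCGCCC. The COL6A2 promoter is at chr21:46097862-46098161 on the plus strand, that of COL16A1 at chr1:31703968-31704267 on the minus strand, that of COL13A1 at chr10:69801656-69801955 on the plus strand and that of COL12A1 at chr6:75206004-75206303 on the minus strand.
COL6A2: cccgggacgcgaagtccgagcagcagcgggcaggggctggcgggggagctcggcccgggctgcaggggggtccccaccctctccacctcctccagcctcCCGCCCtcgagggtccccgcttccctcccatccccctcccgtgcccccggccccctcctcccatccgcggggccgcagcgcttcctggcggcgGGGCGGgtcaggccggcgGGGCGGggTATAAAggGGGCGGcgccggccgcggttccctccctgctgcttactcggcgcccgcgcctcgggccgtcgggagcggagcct
COL16A1: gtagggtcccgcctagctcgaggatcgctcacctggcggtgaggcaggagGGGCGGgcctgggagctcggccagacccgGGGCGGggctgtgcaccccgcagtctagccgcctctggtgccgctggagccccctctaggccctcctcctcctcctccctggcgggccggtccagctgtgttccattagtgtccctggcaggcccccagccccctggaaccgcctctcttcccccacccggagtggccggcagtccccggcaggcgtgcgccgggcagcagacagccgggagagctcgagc
COL13A1: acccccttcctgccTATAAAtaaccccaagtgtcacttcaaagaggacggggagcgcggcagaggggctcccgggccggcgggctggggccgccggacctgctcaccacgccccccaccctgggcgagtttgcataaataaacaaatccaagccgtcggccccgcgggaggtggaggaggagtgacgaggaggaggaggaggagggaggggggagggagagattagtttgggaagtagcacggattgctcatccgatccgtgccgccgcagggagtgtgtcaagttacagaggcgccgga
COL12A1: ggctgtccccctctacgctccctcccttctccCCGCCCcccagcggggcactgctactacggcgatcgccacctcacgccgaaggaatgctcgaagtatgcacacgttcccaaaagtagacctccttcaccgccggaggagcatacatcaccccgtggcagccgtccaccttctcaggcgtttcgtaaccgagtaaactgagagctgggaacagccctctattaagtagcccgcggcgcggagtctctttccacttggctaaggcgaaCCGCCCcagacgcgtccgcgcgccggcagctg

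The COL6A2 promoter held a TATA box that starts 32 bases before the start site, between GC boxes that start 40 and 24 bases before it. The COL16A1 promoter held GC boxes 200 and 171 bases before the start site and no TATA box. The COL13A1 promoter held no GC box, and its only match to TATAAA lies 236 bases before the start site, far from the place of the COL6A2 match. The COL12A1 promoter held a GC box 218 bases before the start site and another 18 bases after it. Of the 63 members, 48 had a promoter in the RefSeq table. A GC box was found in 28 of these 48 promoters and in 44.6% of 27305 promoters of the same length, and a TATA box in 7 of the 48 and in 12.0% of all. The AP-1 site (TGANTCA) was found in 0 of the 48 promoters and in 7.76% of all, and the CCAAT box in 15 of the 48 and in 35.7% of all. The GC content had a median of 66.8% in the members' promoters and 58.3% in all promoters.

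Levels are given as FPKM, fragments scaled for transcript length and for the size of the library, which can be compared between genes. Fragment counts were not analysed here, and the sequencing depth under these values is therefore unknown. A gene was tested where at least 3 of the 6 libraries reached 0.1 FPKM, and differences were tested by limma on log2(FPKM + 0.1) with Benjamini-Hochberg adjustment over all 16020 genes tested, a scale that understates the changes of low genes. A gene was called where the adjusted p was at most 0.025 and the change at least 2-fold. Nothing in the labels says that the 3 libraries of a group came from separate cultures, so the p-values measure only the spread between these libraries.

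Before the members are described, facts of the whole set of libraries bear on them. NGEF, the targeted gene, was at 11.7 to 16.4 FPKM with shControl, against 8.25 to 10.5 FPKM in shEphexin1 libraries. The groups did not overlap, and the shEphexin1 mean was 68.9% of the shControl mean (log2 fold change −0.53, SE 0.163, adjusted p = 0.103 by limma). Replicate 2 of both groups stood apart in base composition. The deviation of its genes from the mean of its own group fell with GC content. The Spearman correlation across 15204 genes was −0.688 in shControl and −0.759 in shEphexin1, against 0.335 to 0.665 in the other 4 libraries. The tested members had a median transcript GC content of 56.1%, against 47.9% over all genes with a value, and many GC-rich members were lowest in replicate 2 of each group. No batch is labelled, so the results on which the comparison turns are also given from replicates 1 and 3 alone, where NGEF had a log2 fold change of −0.54 (adjusted p = 0.0338). Of markers of other cell types, the leukocyte genes PTPRC and CD3E were listed at 0 in all 6 libraries, as was the fibroblast gene LUM, while the leukocyte gene CD14 was at 0 to 0.164 FPKM. The 8 fibroblast markers summed to 3.68 to 4.11 FPKM with shControl, against 4.04 to 5.38 FPKM in shEphexin1 libraries, mostly ACTA2. Of these markers, 3 were high enough to be tested, none called, and THY1 among them only through the shEphexin1 libraries. The 4 endothelial markers summed to 0.0745 to 0.143 FPKM in 5 libraries and to 0.590 FPKM in shEphexin1 replicate 1. Of the line's own markers, VIM was at 1979 to 2670 FPKM, and the lung factor NKX2-1 was listed at 0 throughout. The epithelial keratins KRT8 (log2 fold change −1.07, adjusted p = 0.0304) and KRT18 (−0.94, adjusted p = 0.0439) were lower in all 3 shEphexin1 libraries. EPCAM, another epithelial gene, was at 0 to 0.0663 FPKM with shControl and at 0.108 to 0.220 FPKM under the Ephexin1 shRNA (0.97, adjusted p = 0.175). EPCAM was tested only through the shEphexin1 libraries, so its direction and lack of overlap were fixed by the filter and are no result. The part of these markers in the differences of the members was not tested.

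Of the 44 collagen chains, 20 were high enough to be tested and 24 were not. Of these 24, COL1A2, COL6A5, COL9A1 and COL22A1 were listed at 0 in every library, and the highest value of any untested chain in any library was 0.211 FPKM. All 19 enzymes and enhancers were tested. A mean of at least 1 FPKM over the 6 libraries was reached by 9 chains and by 16 enzymes, so these cells carried mRNA for much of the modifying machinery and for a small part of the collagen family.

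Between the groups, 4 of the 39 tested members were called higher in shEphexin1 cells, against a background of 0.893% of all tested genes, and 0 were called lower, against a background of 0.999%. The 4 were COL6A1 and COL6A2, which encode chains of the beaded filament collagen VI, COL16A1, which encodes a fibril-associated collagen, and COL13A1, which encodes a collagen that spans the plasma membrane. COL13A1 passed the filter on low values only through the shEphexin1 libraries, where it was high, and a gene that passes in this way had to differ. COL4A6 passed only through the shControl libraries. In these bulk samples fewer cells of a type and less RNA per cell cannot be told apart. At an adjusted p of at most 0.05 with no limit on the fold, COL12A1 and P4HA2 were added, 6 members in all, against 7.01% of all genes. At an unadjusted p of at most 0.05, 11 members were higher and 6 lower by the same limma test, 17 in all, against 23.3% of all tested genes. The median log2 fold change over the tested members was 0.24 (range −0.97 to 2.68) and over all tested genes −0.0093. The plot of log2 fold changes by role shows every tested member.

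**Figure D1:**
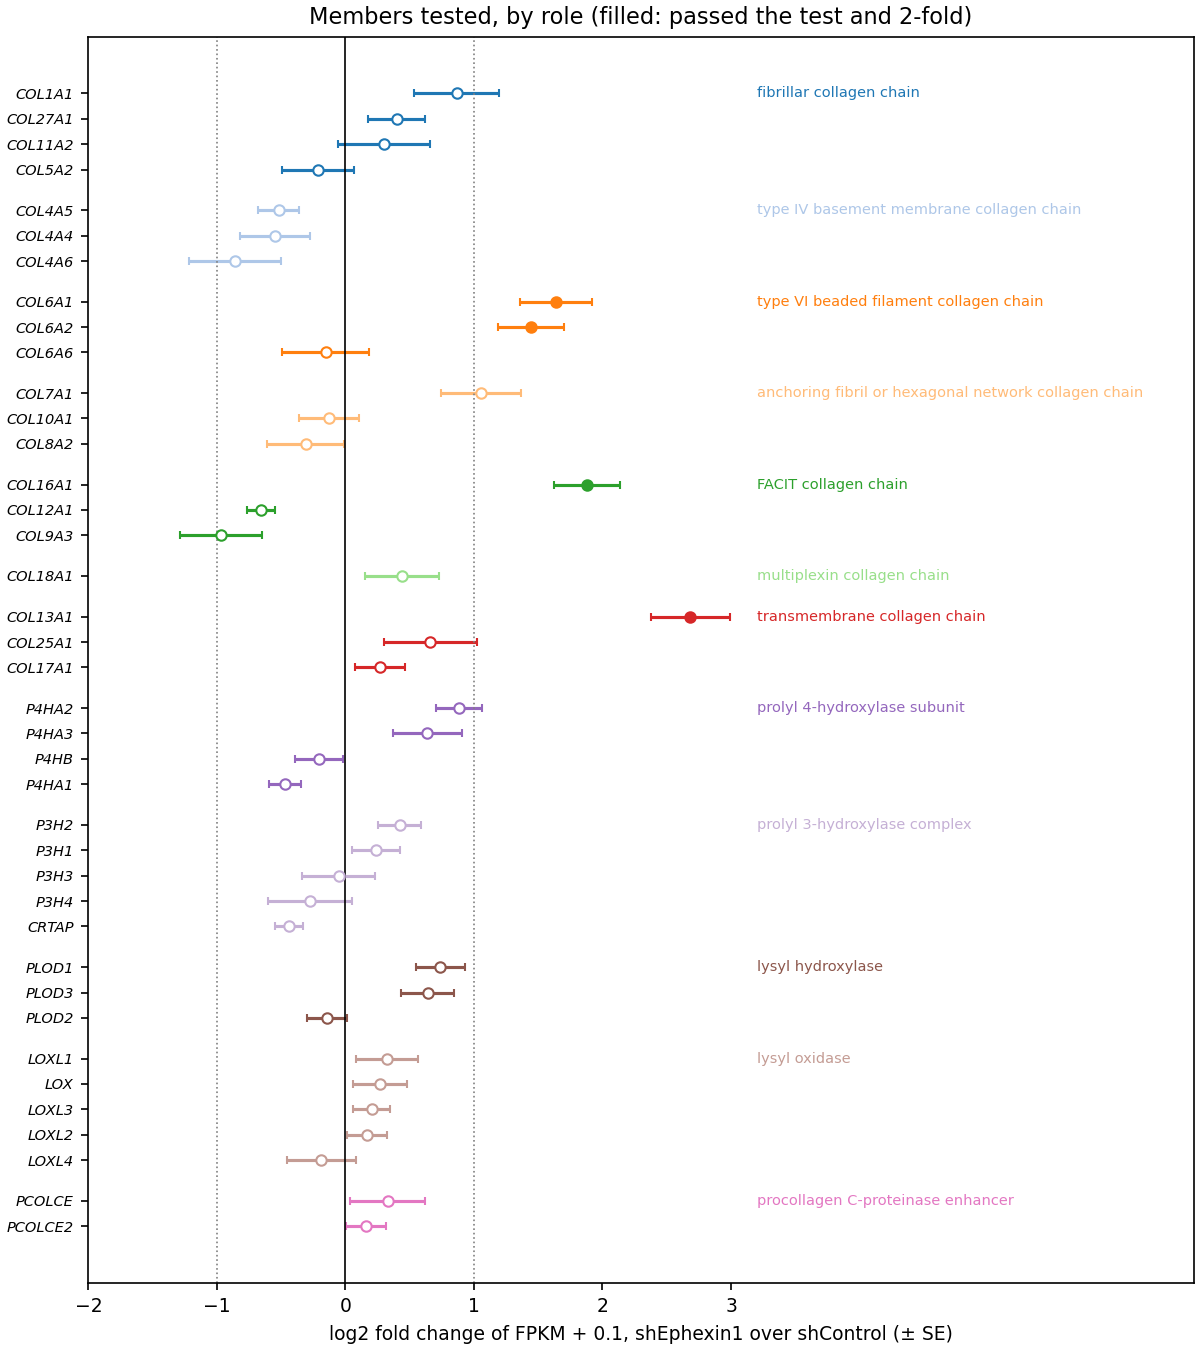
Log2 fold change of FPKM + 0.1, shEphexin1 over shControl, with its SE (horizontal axis), for the 39 tested members ordered by role (vertical axis, 3 libraries a group). Filled points are the 4 called members COL6A1, COL6A2, COL16A1 and COL13A1, dotted lines mark 2-fold, and 23 of the 39 points lie above 0.

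Counted without a test, 12 of the 39 tested members had all shEphexin1 values above all shControl values, against 12.8% of all tested genes, and 8 had all of them below, against 15.4%. Those above comprised 6 chains and 6 enzymes, and those below 6 chains (COL12A1, COL9A3, COL8A2 and the 3 type IV chains) and 2 enzymes (P4HA1 and CRTAP). COL13A1 is counted among those above and COL4A6 among those below. For these 2, tested through 1 group only, the lack of overlap was fixed by the filter and is no result.

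Collagen VI is a microfibril that links cells to the surrounding matrix, and its common form joins the alpha 1, alpha 2 and alpha 3 chains. COL6A1 was at 0.392, 0.247 and 0.353 FPKM with the control shRNA, against 1.30, 0.884 and 1.59 FPKM with the Ephexin1 shRNA. The groups did not overlap, and the lowest shEphexin1 library was above the highest shControl library. COL6A1 rose by a log2 fold change of 1.64 (SE 0.279, adjusted p = 0.0194), and by 1.71 with an adjusted p of 0.0102 in replicates 1 and 3 alone.

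COL6A2 was the more abundant chain, at 2.50, 1.89 and 2.51 FPKM with shControl, against 6.91, 4.42 and 8.45 FPKM in shEphexin1 libraries. Again every shEphexin1 library was above every shControl library, with replicate 2 the lowest of its group in both. COL6A2 rose by a log2 fold change of 1.44 (SE 0.254, adjusted p = 0.0209), and by 1.57 with an adjusted p of 0.0034 in replicates 1 and 3 alone.

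The ratio of COL6A2 to COL6A1 within a library was 6.38, 7.64 and 7.11 in shControl and 5.31, 5.01 and 5.32 in shEphexin1, so this ratio was lower in every shEphexin1 library. COL6A3, the partner chain of the common trimer, was listed at 0 in 5 libraries and at 0.0079 FPKM in shEphexin1 replicate 1. Of the chains that can stand in its place, COL6A5 was listed at 0 throughout. COL6A6 was at 0.165, 0.190 and 0.0834 FPKM with shControl, against 0.0768, 0.123 and 0.160 FPKM in shEphexin1 libraries, where the groups overlapped (log2 fold change −0.15, adjusted p = 0.839).

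COL6A1 (GRCh37, chromosome 21, 47401684 to 47424964) and COL6A2 (47518026 to 47552762) lie on the plus strand, 93.1 kb apart. COL18A1, which lies 468 kb before COL6A1 on the same arm, was not called. Neighbours were taken from tested genes with a mean of at least 1 FPKM over the 6 libraries. Of the 10 nearest that are not members, 5 on each side, 0 were called by limma. Among the same 10, 3 had groups that did not overlap, against 28.3% of all tested genes, and the median log2 fold change was 0.12. Tested genes below that mean were not looked at.

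COL16A1 encodes a fibril-associated collagen with interrupted helices (FACIT) found at the edge of basement membranes. It was at 0.500, 0.401 and 0.589 FPKM with shControl, against 1.96, 1.61 and 2.81 FPKM in shEphexin1 libraries. The groups did not overlap, the lowest shEphexin1 value being well above the highest shControl value. COL16A1 rose by a log2 fold change of 1.88 (SE 0.257, adjusted p = 0.0097), and by 1.93 with an adjusted p of 0.0072 in replicates 1 and 3 alone.

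Among neighbours chosen in the same way, COL16A1 (GRCh37, chromosome 1, 32117864 to 32169920, minus strand) had called genes beside it, unlike the collagen VI genes. Of its 10 nearest genes with a mean of at least 1 FPKM, 3 were called, all of them higher. The background was 0.893% of all tested genes called higher. These 3 neighbours were picked out after their values were seen. Their shControl means were 0.839 FPKM for SERINC2, 0.363 FPKM for ADGRB2 and 0.263 FPKM for SPOCD1. They therefore reached a mean of 1 FPKM only through the shEphexin1 libraries. The count of 3 was partly fixed by this limit and cannot be read against the background. SERINC2, a membrane protein gene, was at 0.569 to 1.07 FPKM with shControl, against 19.0 to 31.2 FPKM in shEphexin1 libraries (log2 fold change 4.82, SE 0.266, adjusted p = 0.0002). ADGRB2, an adhesion G protein-coupled receptor gene, was at 0.255 to 0.473 and 1.21 to 2.08 FPKM (1.96, SE 0.284, adjusted p = 0.0118). SPOCD1 was at 0.184 to 0.399 and 1.39 to 2.10 FPKM (2.46, SE 0.298, adjusted p = 0.0064).

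The 3 called neighbours span 399 kb, from 31882412 to 32281623, with COL16A1 inside that stretch. PEF1, a calcium-binding protein gene that lies between SERINC2 and COL16A1, was at 26.4 to 34.1 FPKM with shControl, against 24.3 to 34.3 FPKM in shEphexin1 libraries, with a log2 fold change of −0.04 (adjusted p = 0.917). The median over the 10 neighbours was −0.077 and the median over chromosome arm 1p was 0.04. Of the genes in the stretch with a mean of at least 1 FPKM, 4 were called and only PEF1 was not. All 4 called genes had a shControl mean below 1 FPKM, that of COL16A1 being 0.497 FPKM. A gene low in both groups could not enter this count, so the count was partly fixed by the limit. Tested genes below that mean were not looked at in the stretch.

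**Figure D2:**
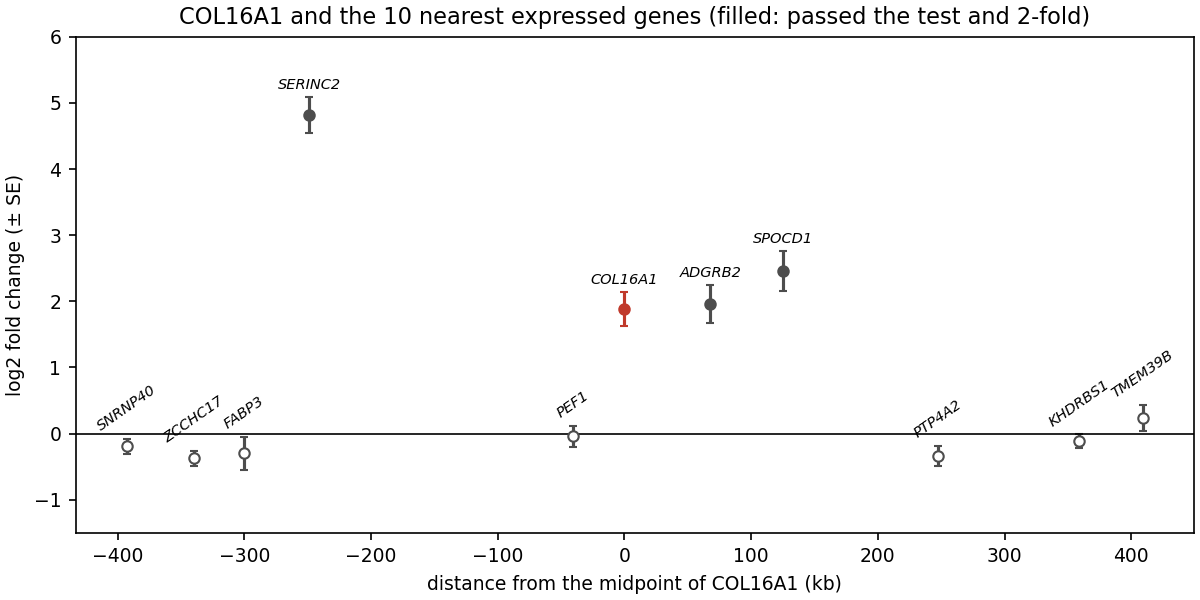
Log2 fold change with its SE (vertical axis) for COL16A1 (red) and its 10 nearest genes with a mean of at least 1 FPKM (grey). The horizontal axis is the distance in kb from the midpoint of COL16A1. SERINC2, ADGRB2 and SPOCD1 are filled as called, at 4.82, 1.96 and 2.46, while PEF1 between them lies at −0.04.

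Both other tested FACIT chains had lower values in shEphexin1 libraries. COL12A1, whose product sits on the surface of collagen I fibrils, was among the most abundant chains, at 11.2, 11.5 and 10.9 FPKM with shControl, against 6.99, 7.42 and 6.75 FPKM in shEphexin1 libraries. The libraries of each group lay close together and the groups were far apart. The log2 fold change was −0.66 (SE 0.111, adjusted p = 0.0191), a difference that passed the p threshold but not 2-fold. In replicates 1 and 3 alone it was −0.68 with an adjusted p of 0.0105.

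COL9A3, a chain of the cartilage collagen IX named here after its values were seen, was at 0.425, 0.272 and 0.552 FPKM with shControl, against 0.154, 0.119 and 0.205 FPKM in shEphexin1 libraries. The groups did not overlap, but the difference did not pass the test (log2 fold change −0.97, SE 0.316, adjusted p = 0.120). It was called after correction for GC content and length (−1.06, adjusted p = 0.0192), and no longer called when the replicate block was added to that correction (adjusted p = 0.0343). The other 7 FACIT chains were not tested, with at most 0.159 FPKM in any library.

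COL13A1, a transmembrane collagen of cell adhesion sites, was at 0.0306, 0.0247 and 0.0389 FPKM with shControl, against 0.666, 0.575 and 1.06 FPKM in shEphexin1 libraries. All 3 shControl libraries were below the filter and all 3 shEphexin1 libraries above it. COL13A1 rose by a log2 fold change of 2.68 (SE 0.307, adjusted p = 0.0051), and by 2.81 with an adjusted p of 0.0082 in replicates 1 and 3 alone. With shControl values this low the fold rests on the value added before taking logs, and was 0.77 with 1 FPKM added and 4.20 with 0.01 FPKM added. Its 10 nearest genes with a mean of at least 1 FPKM had a median of −0.27, and 0 of them were called by limma. For 3 of them the groups did not overlap, against 28.3% of all tested genes.

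COL17A1, the transmembrane collagen of hemidesmosomes, was at 1.89 to 2.66 FPKM with shControl, against 2.56 to 3.39 FPKM in shEphexin1 libraries, which overlapped (log2 fold change 0.27, adjusted p = 0.467). COL25A1, the third transmembrane chain tested, was at most 0.247 FPKM and its groups overlapped as well.

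Of all chains, COL18A1 had the highest mean. It encodes a basement membrane collagen whose end fragment is endostatin, and was at 11.6, 7.84 and 13.9 FPKM with shControl, against 17.3, 9.99 and 18.4 FPKM in shEphexin1 libraries. Replicate 2 was the lowest library of both groups, and the groups overlapped. The log2 fold change was 0.44 (SE 0.289, adjusted p = 0.421), and 0.49 with an adjusted p of 0.0352 in replicates 1 and 3 alone. It was 0.21 without shControl replicate 2 and 0.72 without shEphexin1 replicate 2.

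COL7A1, the anchoring fibril collagen, is named after its values were seen. It was at 1.503, 1.155 and 2.111 FPKM with shControl, against 3.734, 2.197 and 4.411 FPKM in shEphexin1 libraries. The groups did not overlap, although shEphexin1 replicate 2 was only just above shControl replicate 3. The log2 fold change of 1.05 did not pass the test (SE 0.310, adjusted p = 0.0913). In replicates 1 and 3 alone it was 1.14 with an adjusted p of 0.0166, which is a call. Those libraries were chosen after the base composition of replicate 2 was seen. Over all tested genes they gave 234 calls higher and 196 lower, against 143 and 160 with all 6 libraries.

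**Figure D3:**
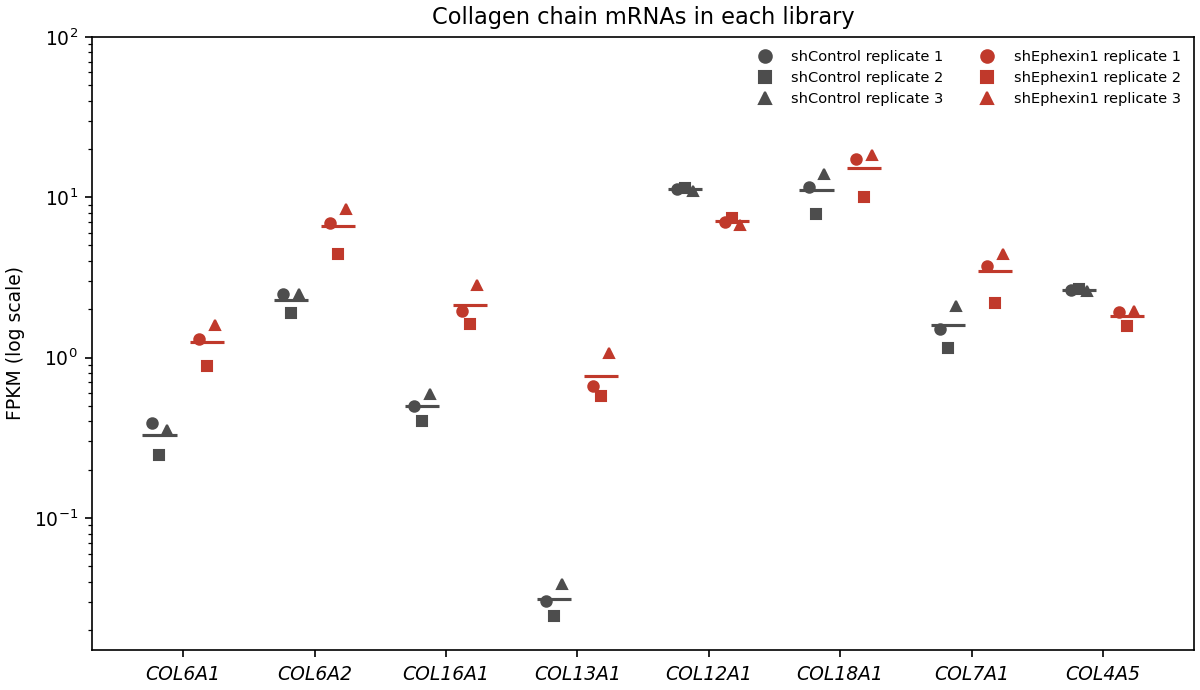
FPKM on a log axis (vertical) of 8 collagen chains (horizontal) in each shControl (grey) and shEphexin1 (red) library, with the mean of each group as a line and the replicate number as the marker shape. COL6A1, COL6A2, COL16A1, COL13A1 and COL7A1 were higher and COL12A1 and COL4A5 lower without overlap, while the groups overlapped for COL18A1.

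Type IV collagen forms the network of basement membranes. COL4A1 and COL4A2, the chains of its most widespread form, were not tested, with at most 0.0665 FPKM in any library. The 3 type IV chains that were tested had groups that did not overlap and were lower in shEphexin1 libraries, but none passed the test. For COL4A6, which passed the filter only through the shControl libraries, this direction was fixed by the filter. COL4A3, which was not tested, was at 0.0454 to 0.176 FPKM with shControl and 0.0386 to 0.106 FPKM in shEphexin1 libraries, which overlapped. COL4A5, a chain also known for Alport syndrome and chosen after its values were seen, was at 2.64, 2.68 and 2.62 FPKM with shControl, against 1.93, 1.58 and 1.95 FPKM in shEphexin1 libraries (log2 fold change −0.52, SE 0.157, adjusted p = 0.0968). COL4A6 starts 380 bases from COL4A5 and runs the other way on the X chromosome. It was at 0.156, 0.116 and 0.176 FPKM with shControl, against 0, 0.0704 and 0.0494 FPKM in shEphexin1 libraries (−0.86, SE 0.358, adjusted p = 0.204), and the value was −0.14 with 1 FPKM added and −2.12 with 0.01 FPKM added. COL4A4 was at 0.216 to 0.255 and 0.117 to 0.155 FPKM (−0.55, adjusted p = 0.282).

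Fibrillar collagens were low in these cells. COL27A1, a fibrillar collagen of cartilage, was the highest, at 1.89 to 2.76 FPKM with shControl, against 2.36 to 3.61 FPKM in shEphexin1 libraries, and its groups overlapped (log2 fold change 0.40, adjusted p = 0.332). COL1A1, the main chain of collagen I, was at 0.0813, 0.0884 and 0.124 FPKM with shControl, against 0.253, 0.169 and 0.387 FPKM in shEphexin1 libraries. All 3 shEphexin1 values were higher, but the difference did not pass the test (0.87, SE 0.332, adjusted p = 0.174), and its partner COL1A2 was listed at 0 in every library. COL5A1, a chain that starts fibrils, was below the filter. It was at 0, 0.0099 and 0 FPKM with shControl, against 0.211, 0.148 and 0.0954 FPKM in shEphexin1 libraries, which did not overlap. Tested with no filter its log2 fold change was 1.26 (adjusted p = 0.0302). COL5A2, its partner chain, was at 0.429 to 0.476 and 0.263 to 0.540 FPKM, which overlapped.

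The sum over all chains was 38.6 ± 4.12 FPKM with shControl, against 48.4 ± 9.97 FPKM in shEphexin1 libraries (SD, n = 3 in each group), and the groups overlapped, with 37.6 FPKM in shEphexin1 replicate 2. COL12A1 made up 28.7%, 33.4% and 25.6% of it in shControl and 13.8%, 19.8% and 11.8% in shEphexin1 libraries, which did not overlap. COL6A2 made up 5.94% ± 0.473 and 13.4% ± 1.52, COL16A1 1.28% ± 0.109 and 4.36% ± 0.530, and COL4A5 6.91% ± 0.843 and 3.81% ± 0.404 (SD, n = 3 in each group). COL18A1 made up 28.5% ± 5.07 and 31.0% ± 3.92, with groups that overlapped. These shares are descriptions of FPKM and were not tested.

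**Figure D4:**
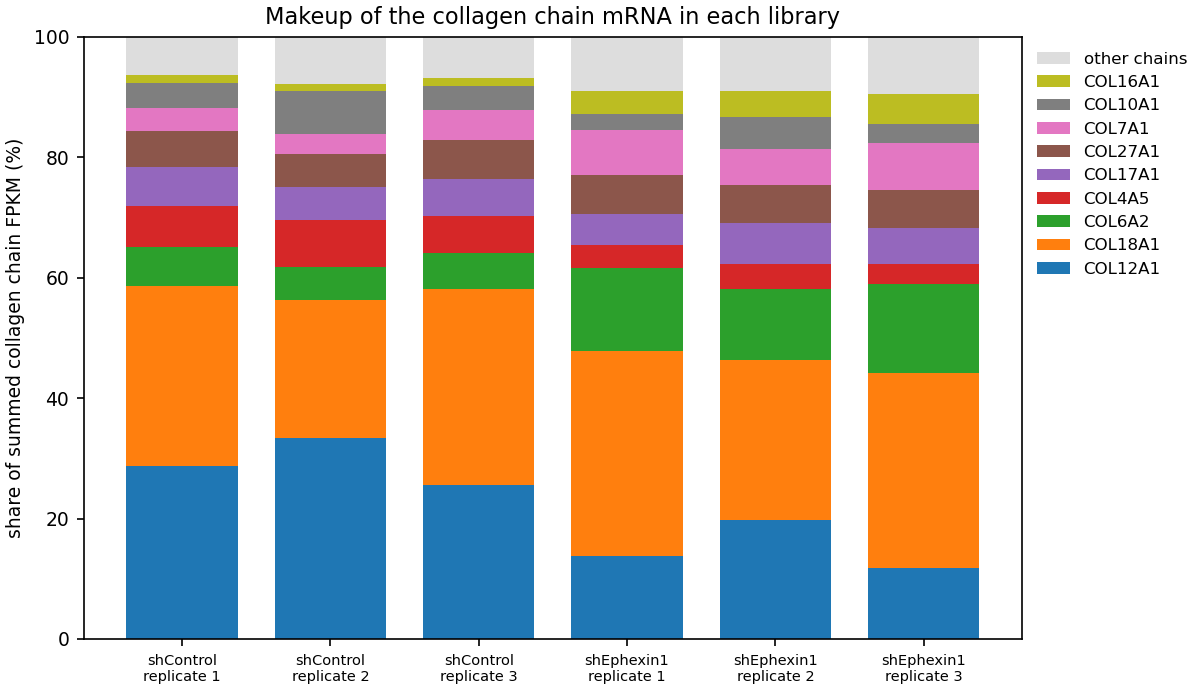
Share of the summed FPKM of all 44 collagen chains (vertical axis, %) taken by 9 named chains and by the rest, for each of the 6 libraries (bars). COL12A1 takes 25.6 to 33.4% in shControl and 11.8 to 19.8% in shEphexin1 libraries, while COL6A2 takes 5.50 to 6.44% and 11.8 to 14.8%.

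Among the 19 enzymes and enhancers, 0 were called in either direction by limma, and 7 had an unadjusted p of at most 0.05, against 23.3% of all genes. Prolyl 4-hydroxylase is a tetramer of catalytic alpha subunits (P4HA1 to P4HA3) and the protein disulfide isomerase P4HB. P4HA2 was at 7.35, 6.82 and 9.46 FPKM with shControl, against 13.6, 12.8 and 17.5 FPKM in shEphexin1 libraries. Every shEphexin1 library was above every shControl library. The log2 fold change was 0.88 (SE 0.178, adjusted p = 0.0324), which is under 0.05 but not a call, and 0.88 with an adjusted p of 0.0193 in replicates 1 and 3 alone.

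P4HA1, the most abundant alpha subunit in shControl cells, had lower values in shEphexin1 libraries. It was at 22.2, 24.3 and 20.9 FPKM with shControl, against 17.3, 17.1 and 14.4 FPKM in shEphexin1 libraries, which did not overlap (−0.47, SE 0.123, adjusted p = 0.0663, and −0.45 with an adjusted p of 0.0413 in replicates 1 and 3 alone). The median of its chromosome arm, 10q, was −0.30, and with that subtracted the value for P4HA1 was −0.16.

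The ratio of P4HA2 to P4HA1 within a library was 0.332, 0.280 and 0.452 in shControl and 0.788, 0.748 and 1.21 in shEphexin1, so that the lowest shEphexin1 ratio was above the highest shControl ratio. P4HA3, a minor subunit, was at 0.322 to 0.607 and 0.694 to 0.926 FPKM (0.64, adjusted p = 0.210). The sum of the 3 alpha subunits was 30.8 ± 0.673 FPKM with shControl, against 31.7 ± 1.10 FPKM in shEphexin1 libraries (SD, n = 3 in each group), and these overlapped. P4HB, the most abundant member of all, was at 139, 106 and 158 FPKM with shControl, against 127, 92.7 and 130 FPKM in shEphexin1 libraries, which overlapped (−0.20, SE 0.188, adjusted p = 0.578, and −0.21 with an adjusted p of 0.141 in replicates 1 and 3 alone).

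Lysyl hydroxylases differ in where they act. PLOD1 acts on the helix, PLOD2 on the telopeptides that carry crosslinks, and PLOD3 also adds sugars to hydroxylysine. PLOD3 was at 38.6, 30.6 and 43.9 FPKM with shControl, against 63.5, 43.9 and 70.5 FPKM in shEphexin1 libraries. The groups just failed to overlap, shEphexin1 replicate 2 standing level with shControl replicate 3, and the difference did not pass the test (0.64, SE 0.208, adjusted p = 0.118). In replicates 1 and 3 alone it was 0.70 with an adjusted p of 0.0077, and with the median of arm 7q (0.30) subtracted it was 0.34.

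PLOD1, named after its values were seen, was at 14.8, 12.1 and 16.6 FPKM with shControl, against 26.8, 18.9 and 27.5 FPKM in shEphexin1 libraries. These did not overlap (0.74, SE 0.188, adjusted p = 0.0601, and 0.79 with an adjusted p of 0.0057 in replicates 1 and 3 alone). PLOD2 was at 17.3, 21.8 and 16.6 FPKM with shControl, against 16.6, 19.3 and 14.5 FPKM in shEphexin1 libraries, and these overlapped (−0.14, SE 0.157, adjusted p = 0.652). PLOD2, with a transcript GC content of 35.5%, was highest in replicate 2 of both groups, and PLOD1 (58.8%) and PLOD3 (61.4%) were lowest there. The ratio of PLOD1 to PLOD2 was 0.852, 0.554 and 0.999 in shControl and 1.61, 0.977 and 1.89 in shEphexin1 libraries, and the groups overlapped because of shEphexin1 replicate 2.

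In the prolyl 3-hydroxylase complex, CRTAP, the cofactor that is mutated in a recessive form of brittle bone disease, was at 30.5, 26.5 and 30.8 FPKM with shControl, against 22.2, 21.2 and 21.2 FPKM in shEphexin1 libraries. All shEphexin1 values were lower (−0.44, SE 0.107, adjusted p = 0.0548, and −0.50 with an adjusted p of 0.0121 in replicates 1 and 3 alone). Its enzyme partner P3H1 was at 18.94, 13.99 and 19.84 FPKM with shControl, against 21.7, 16.7 and 23.9 FPKM in shEphexin1 libraries, which overlapped (0.24, adjusted p = 0.510). Thus the ratio of CRTAP to P3H1 was 1.61, 1.89 and 1.55 in shControl and 1.02, 1.27 and 0.885 in shEphexin1 libraries, without overlap. Of the other members of the family, P3H2 was at 1.92 to 2.71 and 3.09 to 3.22 FPKM (0.42, adjusted p = 0.195), and P3H3 and P3H4 had groups that overlapped.

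The lysyl oxidases, which start crosslinks by oxidising lysines, were led by LOXL1. It was at 37.5, 27.8 and 44.6 FPKM with shControl, against 50.4, 32.9 and 55.2 FPKM in shEphexin1 libraries, which overlapped (0.32, SE 0.241, adjusted p = 0.478). The value was 0.14 without shControl replicate 2, 0.55 without shEphexin1 replicate 2 and 0.37 (adjusted p = 0.0621) in replicates 1 and 3 alone. LOXL2 was at 18.8 to 23.9 and 20.9 to 28.7 FPKM (0.17, adjusted p = 0.583). LOX, the founding member, was at 0.695 to 1.01 FPKM with shControl, against 1.03 to 1.16 FPKM in shEphexin1 libraries, a small difference without overlap (0.27, adjusted p = 0.497). None of the 5 lysyl oxidases reached an unadjusted p of 0.05, and the same holds for the enhancers PCOLCE (0.33, adjusted p = 0.561) and PCOLCE2 (0.16, adjusted p = 0.589).

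**Figure D5:**
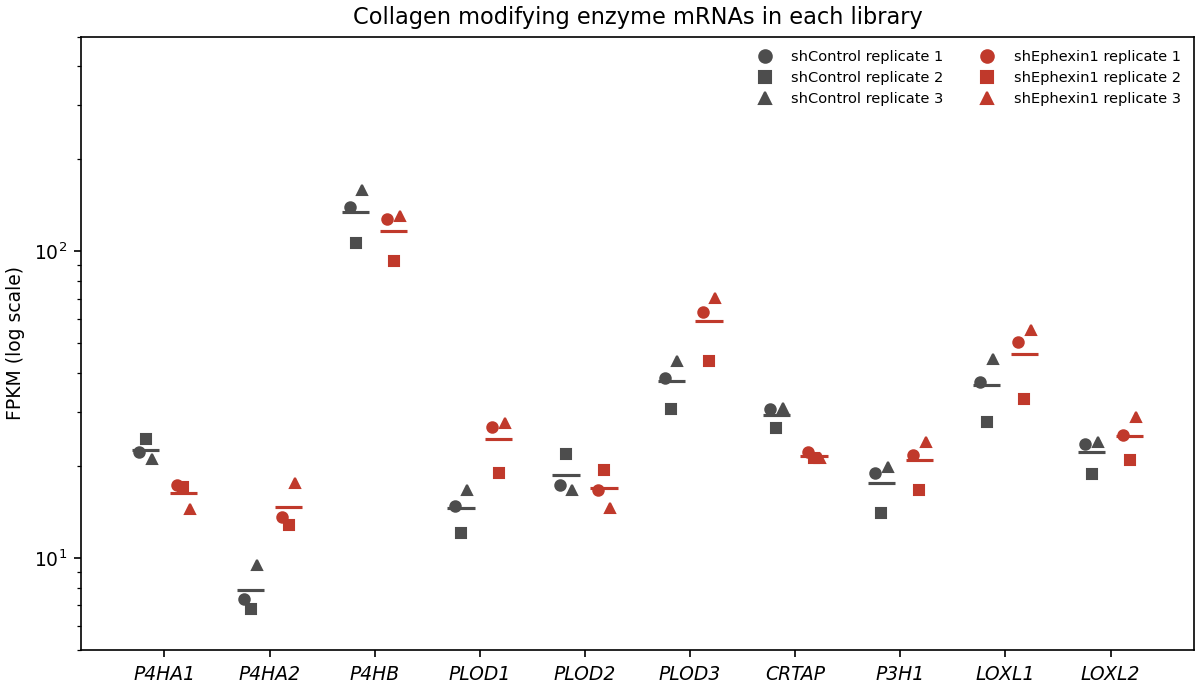
FPKM on a log axis (vertical) of 10 enzymes (horizontal) in each shControl (grey) and shEphexin1 (red) library, with the group means as lines and the replicate number as the marker shape. P4HA2, PLOD1 and PLOD3 were higher and P4HA1 and CRTAP lower without overlap, while none of the 10 was called.

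The pathway around these genes was read from a list of 40 genes for folding, export, propeptide cleavage, receptors and breakdown of collagen, of which 33 were tested. Of these, 1 was called higher and 0 lower, against the same background of 0.893% and 0.999% of all genes. The called gene was MMP9, a gelatinase that degrades basement membrane collagen, at 0.188, 0.0828 and 0.0621 FPKM with shControl, against 0.754, 0.492 and 0.907 FPKM in shEphexin1 libraries. It rose by a log2 fold change of 1.97 (adjusted p = 0.0205), and by 2.10 with an adjusted p of 0.0191 in replicates 1 and 3 alone, with no overlap between the groups.

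MMP14, a membrane-bound collagenase named after its values were seen, was far more abundant, at 38.7, 30.8 and 41.5 FPKM with shControl, against 71.2, 54.8 and 79.4 FPKM in shEphexin1 libraries. These did not overlap (0.88, adjusted p = 0.0312), and it was the other listed gene with an adjusted p of at most 0.05. At an unadjusted p of at most 0.05 there were 8 of the 33, near the background of 23.3% of all genes. By step, 7 folding genes, 9 export genes, 4 cleavage genes and 6 receptors were tested and 0 were called by limma, with 0, 2, 1 and 3 of them at an unadjusted p of at most 0.05. The median over the 33 genes was 0.05, against −0.0093 over all genes. The collagen chaperone SERPINH1 was at 28.5 to 39.5 and 24.0 to 38.4 FPKM, and the groups overlapped.

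The calls of the 4 members changed with the libraries used. Without shEphexin1 replicate 2 all 4 stayed called. Without shControl replicate 1, shEphexin1 replicate 1 or shEphexin1 replicate 3, 0 of the 39 members stayed called by limma, and without shControl replicate 2 or shControl replicate 3 COL13A1 alone did. The log2 fold changes over these fits were 1.46 to 1.85 for COL6A1, 1.24 to 1.70 for COL6A2, 1.67 to 2.05 for COL16A1 and 2.45 to 2.85 for COL13A1, and the highest adjusted p was 0.0999, 0.104, 0.0577 and 0.0358. With no filter on low values COL6A1 (adjusted p = 0.0268) and COL6A2 (adjusted p = 0.0322) were no longer called, nor was COL6A2 when limma was run without a trend in the variance (adjusted p = 0.0330). With 1 FPKM added before taking logs COL6A1 fell short of 2-fold (0.75), as did COL13A1.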

How the data were processed

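Total RNA of the 6 libraries was prepared with a stranded total RNA kit, and per the labels and the study's methods reads were demultiplexed with bcl2fastq 2.20, mapped to GRCh37/hg19 with TopHat2 2.0.13 and Bowtie, and quantified with Cufflinks 2.2.1 (Cuffdiff, geometric normalization). The annotation and the use of strand in counting are not given in the sources used here. The authors deposited one table of FPKM per gene and library, and 0 of its value columns were left out. FPKM hold no counts, and with the depth unknown no counting interval is given.

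Values were analysed with R 4.3.3 and limma 3.58.1 (lmFit, eBayes with trend) on log2(FPKM + 0.1), for genes with at least 0.1 FPKM in 3 of 6 libraries, which left out 10235 genes. A call needed a 2-fold change and an adjusted p of 0.025 or less. GC content and GRCh37 positions came from GENCODE release 44, by symbol, and promoters from RefSeq (GRCh38.p14). Tables and plots were made with Python 3.11.15, pandas 2.3.3 and matplotlib 3.10.9. The members and lists were chosen with earlier results of these data known. By rule, values are given in full for the marker genes COL6A1, COL6A2 and COL16A1, called members, members with an adjusted p of at most 0.05, the 3 chains and 3 enzymes with the highest mean, and their partner chains. Other members are named after their values were seen. Alternatives varied the pseudocount, filter, scaling, variance model, GC and length correction, replicate block, a term for replicate 2, thresholds and the libraries used. Some marker genes are not reported here.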

Additional observations from a re-analysis of the deposited data

How the results depend on the processing

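The log2 fold changes of 21 named members were recomputed under 19 or 20 alternatives each, and 1 changed sign, that of P4HB, which was 0.0035 with the median of its chromosome arm subtracted (17q, −0.21). The number of members called higher, 4 with the settings of the report, was 2 with a pseudocount of 1 FPKM, 2 with no filter and 2 with a filter of 1 FPKM, which left COL6A1 and COL13A1 out of the test. It was 0 to 4 when 1 library was left out. The number of members called lower, 0 with the settings of the report, was 1 after correction for GC content and length (COL9A3), and 1 at an adjusted p of at most 0.025 or of at most 0.05 with no fold limit (COL12A1). It was 0 in every fit without 1 library. The number of pathway genes called, 1 in the report, was 0 with a pseudocount of 1 FPKM, 0 with 0.01 FPKM, 0 with a filter of 1 FPKM, 2 at an adjusted p of at most 0.05 with no fold limit, and 0 to 2 when 1 library was left out. The number of members without overlap, 20 in the report, was 12 of the 26 members left with a filter of 1 FPKM, and 20 to 28 when 1 library was left out. The share of all genes without overlap was 28.3% in the report, 28.6% with that filter and 32.2 to 47.2% when 1 library was left out, since fewer libraries overlap less by construction. With the replicate block, 5 members were called higher and 0 lower, COL7A1 being added, and over all genes 309 were called higher and 247 lower, against 143 and 160 without it. Same-numbered libraries deviated together with a correlation of 0.091, 0.430 and 0.328 for replicates 1, 2 and 3, and each library correlated best with its own number, a hint from the data and not from the design. COL7A1 was also called with a term that set replicate 2 of both groups apart (adjusted p = 0.0038 by limma) and in replicates 1 and 3 alone. That term was made from the base composition seen, as no batch is labelled. The counts over all genes were 312 and 252 with that term, 234 and 196 in replicates 1 and 3 alone, 300 and 242 after GC and length correction and 306 and 234 with the replicate block as well. They were 73 and 66 with a pseudocount of 1 FPKM, 23 and 56 without shEphexin1 replicate 1, and 24 and 37 without shControl replicate 1. The other causes of these changes were not tested. The depth is unknown, so chains under 0.1 FPKM cannot be called absent.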
